A study of Mus musculus with 6 samples.

Results

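Circular RNAs (circRNAs) of genes that encode solute carriers, ion and lipid pumps and ABC transporters were examined in the striatum of mice that lack HuD. HuD, the product of the gene Elavl4, is a protein of neurons that binds RNA. A circRNA is a ring, formed when the splicing machinery joins the end of an exon to the start of an exon that lies before it. The members were the 71 circRNAs, of 3056 in all, whose host gene symbol starts with Slc, Atp1, Atp2, Atp6, Atp7, Atp8, Atp9, Atp10, Atp11, Atp13, Abca, Abcb, Abcc, Abcd, Abcg, Tmc or Mfsd. The 3056 circRNAs are those in 3 tables, namely the deposited table of circRNAs higher in HuD KO (1140), the deposited table of circRNAs lower in HuD KO (1348) and the circRNAs pulled down with HuD (the HuD-bound list, 658 circRNAs as used here). Of the 71 members, 22 were in the higher table, 36 in the lower table and 15 in the HuD-bound list, with 2 in both the HuD-bound list and the higher table and none in both the HuD-bound list and the lower table. They came from 51 host genes, of which 35 had 1 member, 12 had 2 and 4 had 3.

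Striatal RNA of 3 HuD KO mice (Elavl4 -/-) and of 3 WT littermates was measured, all of them adult males on C57BL6, and each mouse had 1 array. The knockout is present in every cell, and RNA came from whole tissue, where fewer cells of a type and less RNA per cell cannot be told apart. Linear RNA had been digested with RNase R, and the remaining RNA was labelled by random priming and hybridised to a mouse array with 14236 circRNA features. The HuD-bound list came from other mice, which carry myc-tagged HuD under the Camk2a promoter (HuD-OE). CircRNAs pulled down from their striatum with an antibody to the tag were listed against control pull-downs, and tissue of 3 mice was pooled for each. The list used here is shorter than the one the study describes, and the shares over it refer to the copy used.

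This difference in origin sets what can be tested. The higher and lower tables were chosen by the authors on these same arrays, at a fold change of 2 and an unadjusted p under 0.05 per the file headers, so the change of their members in HuD KO is given as a description. The 15 HuD-bound members were chosen in other animals by binding, and their change in HuD KO was not used in that choice. The 2 that are also in the higher table were listed there for their change on these arrays.

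Carriers of the Slc families move ions, neurotransmitters, amino acids and metals across membranes along gradients. Pumps of the Atp families spend ATP to build those gradients, and ABC transporters use ATP to export lipids and other compounds. In brain, the sodium-potassium pump restores the membrane potential after firing, calcium pumps and sodium-calcium exchangers clear calcium from the cytosol, and the vacuolar proton pump acidifies the vesicles that are filled with transmitter. HuD is known to bind AU-rich and U-rich stretches of neuronal RNAs, and circRNAs of synaptic genes are abundant in brain.

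The deposited tables and the HuD-bound list give a sequence of 60 bases for each circRNA, which is how 1 circle of a gene is told from another. Sequences of 4 hosts are shown because their circles differed from each other in how they changed, and the bases are in capitals where 2 circles of the host share a run of at least 12 bases and all in lower case where no such run was found. A circle is called below by the number that ends its name. Positions are as deposited. The genome build is not stated in the sources used here, but 70 of the 71 members lay inside the span of their host gene in a GRCm38 gene table, the exception being mmu_circRNA_19279 of Mfsd8.
Atp2a2 mmu_circRNA_19383, chr5:122489235-122491786, minus strand, sense overlapping: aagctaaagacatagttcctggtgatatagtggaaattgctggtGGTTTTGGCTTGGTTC
Atp2a2 mmu_circRNA_39310, chr5:122466827-122491785, minus strand, exonic: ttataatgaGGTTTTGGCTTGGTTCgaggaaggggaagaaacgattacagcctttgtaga
Atp2a2 mmu_circRNA_39312, chr5:122491680-122500813, minus strand, exonic: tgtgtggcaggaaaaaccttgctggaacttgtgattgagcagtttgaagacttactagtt
Slc30a9 mmu_circRNA_38718, chr5:67315677-67334668, plus strand, exonic: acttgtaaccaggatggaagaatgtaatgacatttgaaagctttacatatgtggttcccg
Slc30a9 mmu_circRNA_38720, chr5:67347919-67352765, plus strand, exonic: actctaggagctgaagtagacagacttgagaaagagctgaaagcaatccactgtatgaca
Atp2b3 mmu_circRNA_45516, chrX:73522834-73530422, plus strand, exonic: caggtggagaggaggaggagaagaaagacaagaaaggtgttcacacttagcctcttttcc
Atp2b3 mmu_circRNA_45517, chrX:73528644-73555235, plus strand, exonic: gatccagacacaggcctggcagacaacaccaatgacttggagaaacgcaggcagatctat
Slc8a3 mmu_circRNA_010639, chr12:81314259-81316104, minus strand, exonic: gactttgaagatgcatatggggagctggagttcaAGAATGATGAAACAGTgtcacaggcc
Slc8a3 mmu_circRNA_25423, chr12:81314259-81316660, minus strand, sense overlapping: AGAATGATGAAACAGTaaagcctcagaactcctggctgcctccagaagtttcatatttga
The sequences of the Atp2a2 circles 19383 and 39310 share 16 bases, as do those of the 2 Slc8a3 circles, which have the same lower genomic coordinate.

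A level below is a log2 intensity, corrected for background, from which the array's own 75th percentile over circRNA probes was subtracted, so that a probe as bright as the 75th percentile has a level of 0. That percentile was 181 to 277 intensity units in HuD KO and 143 to 164 in WT. By the scanner software's test, 84.0% to 96.7% of circRNA probes per array exceeded background clearly (called well above background here). The 84.0% was that of HuD KO replicate 1, and the other arrays lay between 93.8% and 96.7%. All WT arrays were read in 1 scan, HuD KO replicates 1 and 2 in another and HuD KO replicate 3 in a scan of its own, so scan and genotype cannot be told apart. Of 32 host genes listed as markers of cell types of the striatum and its surroundings, 6 had circRNAs in the 3 tables. Among markers of striatal projection neurons, the circRNA of Adcy5 was lower by 1.79, that of Bcl11b differed by -0.27 (limma adjusted p = 0.219), and the 3 of Foxp1 differed by -3.69, 0.48 and 1.29. The part of these differences in the results below was not tested. No circRNA of Elavl4, the targeted gene, was in the 3 tables, so the knockout was not checked on these arrays.

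To examine whether HuD-bound circRNAs of carriers and pumps change when HuD is absent, the 15 HuD-bound members were compared between HuD KO and WT with limma. Of these, 8 were higher in HuD KO at an adjusted p under 0.05, none was lower (0 also at an unadjusted p under 0.05 and 0 by the methods' t-test), and 7 were not called. Over all 13445 circRNA features tested, 26.2% were called higher and 37.2% were called lower. The 8 were circles of the calcium pumps Atp2a2 (2 circles), Atp2b1 and Atp2c1, of the proton pump subunit Atp6v1h (2 circles), of the glutamate transporter Slc1a2 and of the zinc transporter Slc30a9. The circles of Atp2b1 and Slc30a9 among them are also in the higher table, and of the 13 HuD-bound members outside it 6 were called higher. In the same 8 the lowest HuD KO array was above the highest WT array, and in none of the 15 were the groups apart in the other direction. Over all features tested, 29.8% lay wholly above and 40.4% lay wholly below. The median change of the 15 was 0.41 on the log2 scale, beside -0.11 over all features tested. The other 642 tested circRNAs of the HuD-bound list had a median change of 0.37, with 42.4% called higher and 14.3% called lower.

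The share of higher calls rose with probe brightness over the whole array. With the features split by mean level into 5 groups of equal size, 47.6% of the brightest group were called higher and 19.6% were called lower, with a median change of 0.41, and in the dimmest group 8.44% were called higher and 64.2% were called lower, with a median change of -1.05. Of the 15 HuD-bound members, 12 lay in the brightest group, and 6 of these 12 were called higher, a share close to that of all features of this brightness. Of the 302 other HuD-bound circRNAs in the brightest group, 57.6% were called higher. The direction also depended on how arrays were set against each other. With the 14 circRNA control probes as the base of the scaling instead, the median change over all features was -0.89, and of the 15 members 1 was called higher and 5 were called lower. The members' median was -0.37 under that scaling. It stood 0.52 above the median of all features under both scalings, which shift all probes of an array alike, and 0.11 above it after quantile normalization. Of all calls over the array, 41.3% were higher ones with the 75th percentile, 52.2% with the median, 54.2% after quantile normalization, 67.7% with no scaling and 6.73% with the control probes.

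**Figure D1:**
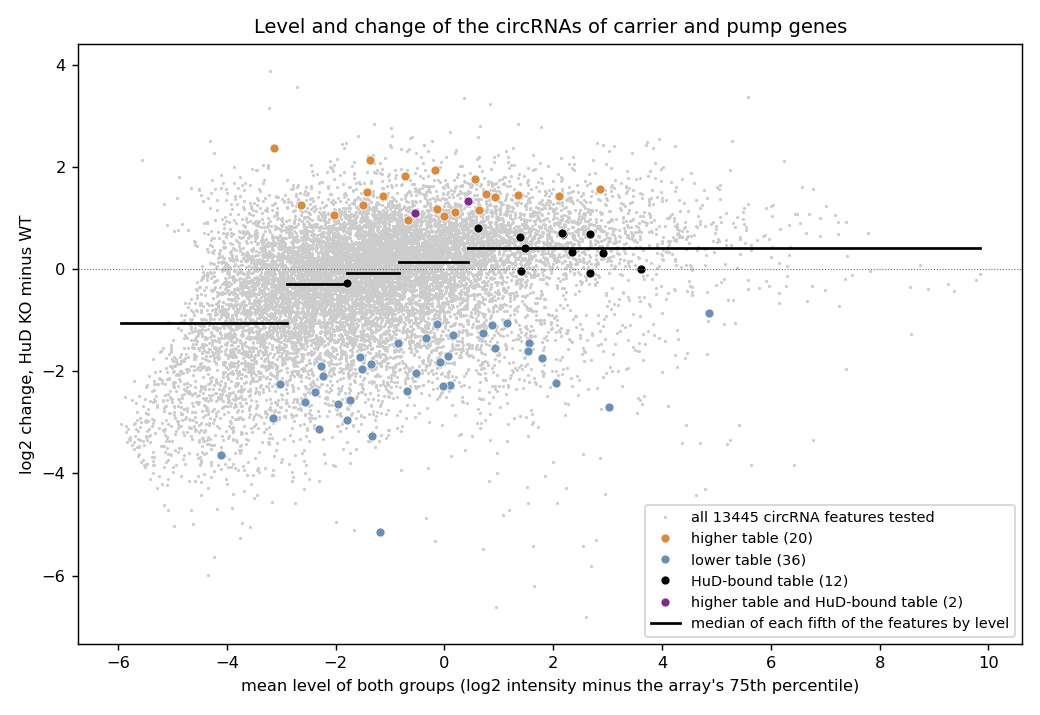
Mean level of both groups (x axis, log2 intensity minus the array's 75th percentile) against the log2 change of HuD KO over WT (y axis) for all 13445 circRNA features tested (grey) and 70 members, coloured by the table that lists them. Black lines give the median change in 5 groups of the features by level, from -1.05 in the dimmest to 0.41 in the brightest, and most of the HuD-bound members drawn lie in the brightest.

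Among HuD-bound circles of calcium pumps, Atp2b1 changed most. Atp2b1 encodes a calcium pump of the plasma membrane, and its circle mmu_circRNA_22507 had levels of 1.30, 1.11 and 0.88 on the HuD KO arrays and of -0.15, -0.29 and -0.25 on the WT arrays. The 2 groups did not overlap, and each HuD KO array stood at least 1 log2 unit above the highest WT array. The change was 1.33 on the log2 scale with an SE of 0.15, or 2.51-fold (limma adjusted p = 0.000235). This circle is also in the higher table. It kept its call under all 20 alternatives, the scaling on control probes included, where the change was 0.54.

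Atp2a2 encodes the calcium pump of the endoplasmic reticulum (SERCA2), and its 3 HuD-bound circles did not change alike. Circle 39310 had levels of 2.98, 2.93 and 3.13 in HuD KO and of 2.23, 2.18 and 2.57 in WT, so all HuD KO arrays were higher, and the change was 0.68 (SE 0.16, limma adjusted p = 0.00615). Circle 39312 had levels of 1.75, 1.61 and 1.72 in HuD KO and of 1.25, 1.16 and 1.44 in WT. It was also higher on every HuD KO array, by 0.41 (SE 0.14, adjusted p = 0.0330), but its call was lost after quantile normalization (adjusted p = 0.183), with scan as a random block (adjusted p = 0.112) with the replicate number as a block (adjusted p = 0.0613), and when HuD KO replicate 1, HuD KO replicate 2, WT replicate 1 or WT replicate 2 was left out (adjusted p between 0.0606 and 0.136). Circle 19383 had levels of 2.58, 2.40 and 2.90 in HuD KO and of 2.62, 2.61 and 2.92 in WT. Its higher genomic coordinate lies within 1 base of that of circle 39310. The levels of circle 19383 overlapped between the groups, and the change was -0.09 (SE 0.18, adjusted p = 0.683).

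The difference between circles of one host was then taken within each array, where a scaling that shifts all probes alike drops out. A change that goes with probe brightness does not drop out where the circles differ in level. Its part in the differences between circles was not tested. The level of circle 39310 minus that of circle 19383 was 0.40, 0.53 and 0.23 on the HuD KO arrays and -0.39, -0.43 and -0.35 on the WT arrays. It was above 0 on all HuD KO arrays and below 0 on all WT arrays, and the groups differed by 0.77. Circle 39312 minus circle 19383 differed by 0.50, from -1.43 ± 0.06 in WT to -0.93 ± 0.22 in HuD KO (SD, n = 3 in each group). For both differences the exact permutation test over arrays, two-sided, gave p = 0.1, the smallest that 3 arrays against 3 can give (0.15 adjusted over the 6 pairs tested). Between circles 39310 and 39312 the difference was -0.27, with the same exact p. The 0.77 came to between 0.66 and 0.85 under all alternatives run for it.

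Slc30a9 encodes a member of a zinc transporter family, and its 2 HuD-bound circles moved apart by more. Circle 38718 rose from -1.10, -1.31 and -0.85 in WT to -0.12, -0.13 and 0.27 in HuD KO. The groups did not overlap, with a change of 1.09 (SE 0.18, limma adjusted p = 0.00129). That call was lost with scaling on the control probes, where the change was 0.31 (limma adjusted p = 0.301). Circle 38720 had levels of -1.77, -1.85 and -2.15 in HuD KO and of -1.92, -1.47 and -1.58 in WT, which overlapped, and its change was -0.27 (SE 0.18, adjusted p = 0.220). Their spans do not overlap in the gene. Within arrays, circle 38720 minus circle 38718 lay between -2.42 and -1.65 in HuD KO and between -0.82 and -0.16 in WT, a difference of -1.36 (exact permutation test, two-sided, p = 0.1, the smallest possible, 0.15 adjusted over 6 pairs). With normexp background correction and quantile normalization it was -0.72. Both circles are in the HuD-bound list, which set this pair, and circle 38718 is also in the higher table, which was chosen on these arrays.

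**Figure D2:**
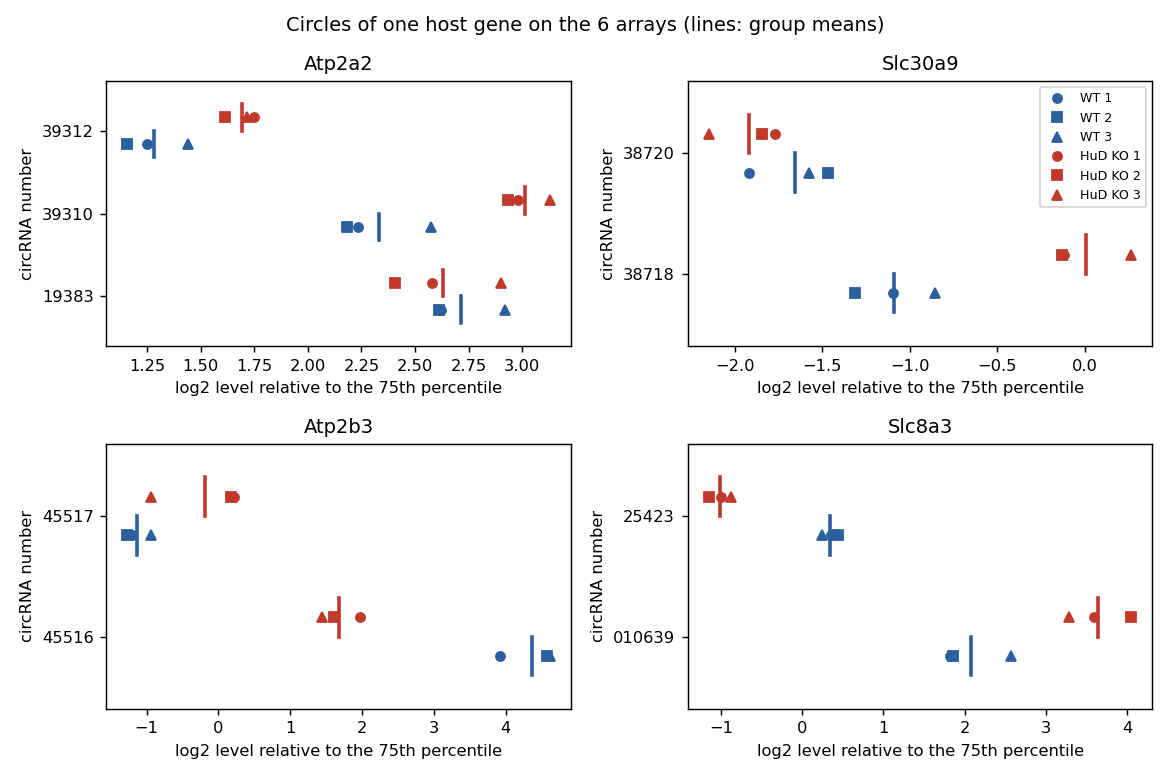
Levels of the circles of Atp2a2, Slc30a9, Atp2b3 and Slc8a3 on the 6 arrays (x axis, log2 intensity minus the array's 75th percentile, with a different range in each panel), with one symbol per array, WT in blue, HuD KO in red and lines at the group means. In Atp2a2, circles 39310 and 39312 are higher on all HuD KO arrays while circle 19383 overlaps, and in Atp2b3 and Slc8a3 the 2 circles move in opposite directions.

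Atp2c1 encodes the calcium and manganese pump of the Golgi. Its HuD-bound circle 45017 had levels of 0.83, 0.94 and 1.27 in HuD KO and of 0.32, 0.05 and 0.26 in WT, without overlap, a change of 0.80 (SE 0.17, limma adjusted p = 0.00373). That call was lost with scaling on the control probes, where the change was 0.02 (limma adjusted p = 0.945). The 2 other circles of Atp2c1, 45018 and 45022, are in the higher table, and their changes were 1.43 and 1.47. All 3 circles of this host were therefore higher in HuD KO, and the spans of circles 45018 and 45022, which do not overlap each other, both overlap that of circle 45017.

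The vacuolar proton pump had 5 members, and all 5 were called higher, beside 26.2% of all features, but 3 of the 5 are members because the higher table lists them. Atp6v1h, a subunit of its cytosolic part, had 2 HuD-bound circles. Circle 19574 had levels of 2.73, 2.63 and 2.19 in HuD KO against 1.85, 1.82 and 1.83 in WT, and circle 018088 had levels of 1.41, 1.72 and 1.95 against 1.24, 1.02 and 0.94. Neither pair of ranges overlapped. The changes were 0.68 (SE 0.17, adjusted p = 0.00953) and 0.63 (SE 0.18, adjusted p = 0.0157), and the difference between these 2 circles did not change beyond the spread of the arrays (0.05, exact permutation p = 0.8). The call of circle 018088 was lost without WT replicate 2 (adjusted p = 0.0575), without WT replicate 3 (0.0511) and with scan as a random block (0.0502), and that of circle 19574 with normexp and quantile normalization (0.0563). The other 3 members of this group are in the higher table. Circle 19573 of Atp6v1h was higher by 1.18, and circles 24185 and 24187 of Atp6v0a1, a subunit of the membrane part, by 2.13 and 1.04. On the HuD KO arrays Atp6v0a1 circle 24185 had levels of -0.27, -0.14 and -0.53, and on the WT arrays -2.32, -2.42 and -2.59, the largest rise among members well above background on all 6 arrays.

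Slc1a2 encodes the main glutamate transporter of astrocytes, and its HuD-bound circle 34116 had levels of 2.23, 2.62 and 2.66 in HuD KO and of 1.84, 1.61 and 1.96 in WT. All HuD KO arrays were higher, by 0.70 on the log2 scale (SE 0.17, limma adjusted p = 0.00900). Of 6 marker genes of astrocytes, Slc1a2 was the only one with a circRNA in the 3 tables, so no second astrocyte circRNA could be set beside it. Slc6a11, the GABA transporter GAT-3, which is also found in astrocytes, had a HuD-bound circle (40770) that did not follow. Its levels were 1.42, 1.63 and 1.1 in HuD KO and 1.30, 1.20 and 1.78 in WT, which overlapped, with a change of -0.04 (SE 0.21, adjusted p = 0.866). The third host grouped with these, Slc1a4, a carrier of small neutral amino acids, is in the lower table. Its circle 22930 went from 0.43, 0.50 and 0.55 in WT to -1.74, -1.86 and -1.02 in HuD KO, a change of -2.03.

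HuD-bound circles of Atp1b1 and Slc8a1 were not called. Atp1b1, a beta subunit of the sodium-potassium pump, had a circle (21193) at 2.77, 2.53 and 2.23 in HuD KO and at 2.14, 1.82 and 2.58 in WT, a difference of 0.33 (SE 0.23, adjusted p = 0.236). These ranges overlapped. Slc8a1, which exports calcium in exchange for sodium, had 2 HuD-bound circles, and in both WT replicate 3 stood above the other arrays. Circle 000947 was at 3.61, 3.55 and 3.68 in HuD KO and at 3.25, 3.29 and 4.30 in WT, and circle 31020 at 3.12, 3.23 and 2.86 against 2.33, 2.53 and 3.41. The differences were 0.00 (SE 0.28, adjusted p = 0.997) and 0.31 (SE 0.28, adjusted p = 0.354). Without WT replicate 3, circle 31020 was called higher (0.64, adjusted p = 0.020).

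**Figure D3:**
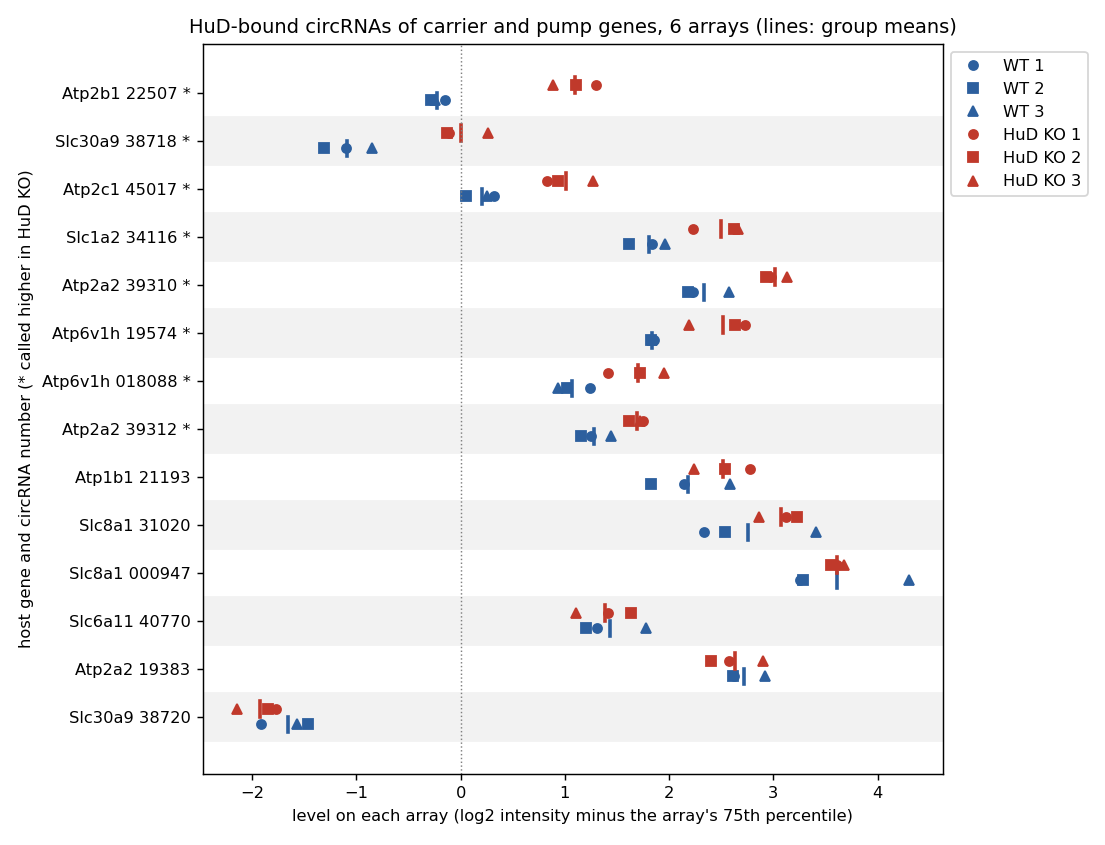
Level of 14 of the HuD-bound members on the 6 arrays (x axis, log2 intensity minus the array's 75th percentile), ordered by change, with WT in blue, HuD KO in red, one symbol per array and lines at the group means. The 8 circles marked with an asterisk, at the top, were called higher in HuD KO, and in the 6 others the arrays of the 2 groups overlap.

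Across all 71 members, 28 were called higher (39.4%, all features 26.2%), 35 were called lower (49.3%, all features 37.2%) and 8 were not called, but 58 of the 71 had been listed for this change. The members of the higher table had a median change of 1.42 (range 0.95 to 2.36), and all 22 were called higher. Those of the lower table had a median change of -2.0 (range -5.15 to -0.87), and 35 of 36 were called lower. The smallest changes among listed members were those of Atp2b3 circle 45517 (0.95) in the higher table and of Slc9a4 circle 19990 (-0.87) in the lower table, both under 2-fold on the scale used here. Next were Atp6v0a1 circle 24187 (1.04) and Abcc1 (-1.07). The largest changes among HuD-bound members outside both tables were those of Atp2c1 circle 45017 (0.80), Slc1a2 (0.70) and Atp2a2 circle 39310 (0.68). Slc9a4, named here after its values were seen, was the member of the lower table without a call. Its levels were 3.98, 3.69 and 5.60 in HuD KO and 5.24, 5.30 and 5.33 in WT, so that HuD KO replicate 3 lay above the WT arrays and the other 2 HuD KO arrays lay below (limma adjusted p = 0.122).

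The pumps and the carriers were listed in different directions. Of 23 circles of Atp genes, 13 were in the higher table and 2 in the lower. Of 33 circles of Slc genes, 6 were in the higher table and 22 in the lower, and of 11 circles of ABC transporter genes, 3 were in the higher and 8 in the lower. All circles of Mfsd and Tmc genes, 2 of each, were in the lower table. By host, 14 genes had members in the higher table, 33 in the lower and 2 in both. Of the 10 hosts with HuD-bound members, 4 also had members in the higher table (Atp2b1, Atp2c1, Atp6v1h and Slc30a9) and none had members in the lower table. Beside these counts, of all 3056 circRNAs of the 3 tables, 1140 were in the higher table and 1348 in the lower. The counts of members describe how they were listed. Circles of 1 host were counted singly, and the 23 Atp circles came from 11 hosts and the 33 Slc circles from 27. The median level was 0.76 in the Atp circles, -0.52 in the Slc circles and -0.09 in the ABC circles. The part of brightness in these directions was not tested.

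**Figure D4:**
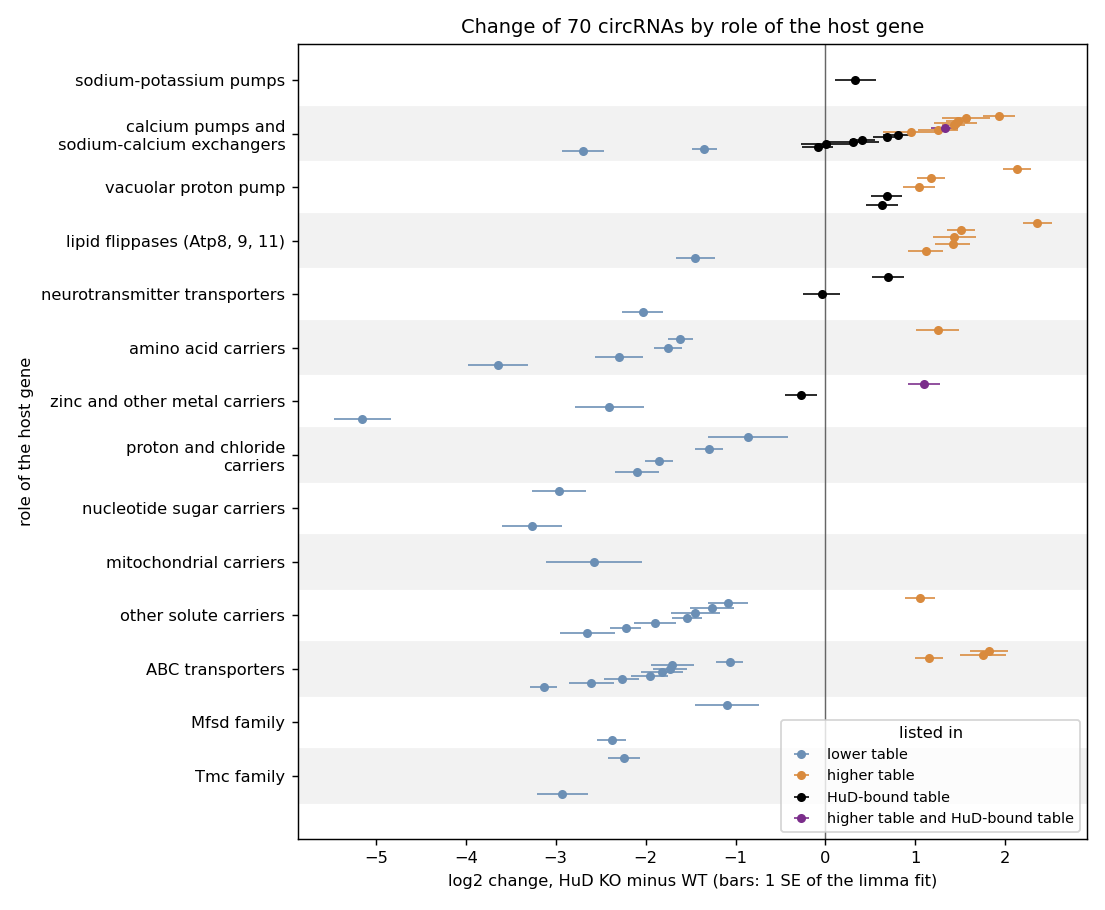
Log2 change of HuD KO over WT (x axis, bars 1 SE of the limma fit) of 70 members, in rows by the role of the host gene (y axis) and coloured by the table that lists it. Members of the higher table lie between 0.95 and 2.36 and include most flippase circles, members of the lower table lie between -5.15 and -0.87 and include most circles of the Slc and ABC rows, and the HuD-bound members drawn lie between -0.27 and 1.33.

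Calcium pumps and exchangers were the largest role group, with 16 circles of 7 hosts, of which 11 were called higher and 2 were called lower, beside 26.2% and 37.2% of all features. Of these, 8 of the 11 and both lower ones are in the tables chosen on this contrast, so 3 calls, all of HuD-bound circles, were not set by the listing. Besides the HuD-bound circles, Atp2b1 circle 22515 had levels of 0.96, 0.97 and 0.42 in HuD KO and of -1.14, -1.13 and -1.16 in WT, a change of 1.93. Slc24a2, a sodium-calcium exchanger that also moves potassium, had 2 circles in the higher table, with changes of 1.45 (exonic, 37087) and 1.25 (intronic, 37097). With normexp background correction the change of the intronic circle, which is dim, was 0.19 and lost its call (adjusted p = 0.238).

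Both members called lower in this group came from hosts that also had a circle called higher. Atp2b3 encodes a calcium pump of the plasma membrane found mainly in neurons. Its circle 45516 was at 3.93, 4.57 and 4.62 in WT and at 1.97, 1.60 and 1.45 in HuD KO, a level 6.49-fold lower, while its circle 45517 was at -1.20, -1.27 and -0.94 in WT and at 0.22, 0.17 and -0.95 in HuD KO. HuD KO replicate 3 lay within the WT range for circle 45517, whose change of 0.95 (adjusted p = 0.0267) lost its call when either of HuD KO replicates 1 and 2 or of WT replicates 1 and 2 was left out (limma adjusted p between 0.0762 and 0.0875). The spans of these 2 circles overlap. Slc8a3 encodes another sodium-calcium exchanger. Its exonic circle 010639 was at 1.82, 1.86 and 2.57 in WT and at 3.59, 4.05 and 3.29 in HuD KO, a change of 1.56. Its circle 25423, which has the same lower genomic coordinate and a longer span, was at 0.35, 0.44 and 0.24 in WT and at -0.99, -1.15 and -0.88 in HuD KO, a change of -1.35. In each the groups did not overlap, in opposite directions. These 2 hosts were named because the tables list them in both directions, so the opposite signs are how they were chosen.

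Over all hosts with more than 1 member, 16 in number, 24 pairs of circles could be formed, and 5 pairs had changes of opposite sign. They were the pairs of Atp2b3, Slc8a3 and Slc30a9 and the 2 pairs of Atp2a2 that hold circle 19383. The negative change was not called in Slc30a9 circle 38720 (-0.27, limma adjusted p = 0.220) or in Atp2a2 circle 19383 (-0.09, limma adjusted p = 0.683). Both circles of the pair were called, in opposite directions, only in Atp2b3 and Slc8a3, the hosts that the tables list in both directions. In 3 pairs the sequences shared 20 bases or more, namely those of Abcb9 (47 bases), Slc38a10 (40) and Abca8b (21). Whether these features read each other's circle was not tested. Their changes were close within the pair for Abcb9 (-1.82 and -1.70) and Slc38a10 (-1.61 and -1.75), and were 1.82 and 1.15 for Abca8b.

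Lipid flippases move phospholipids to the inner face of membranes. All 3 circles of Atp11b were in the higher table, with changes of 1.43 (35249), 1.51 (35253) and 2.36 (35256). Circle 35256 had levels of -1.91, -1.85 and -2.11 in HuD KO and of -4.48, -4.37 and -4.09 in WT, and was well above background on 2 of the 3 WT arrays. The 2 circles of Atp8a1 were also in the higher table (1.12 and 1.42), and the circle of Atp9b was in the lower table (-1.45). No flippase circle was in the HuD-bound list.

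Among ABC transporters, circles of Abca1 and Abca8b were listed as higher. Abca1, which exports cholesterol from cells, had a circle (36781) at 1.59, 0.86 and 1.87 in HuD KO and at -0.37, -0.45 and -0.13 in WT, a change of 1.76. Abca8b had a circle (012245) at 0.45, 0.16 and -0.07 in HuD KO and at -1.37, -1.55 and -2.0 in WT, a change of 1.82. The groups overlapped in neither. The 8 circles listed as lower had changes between -3.13 and -1.07. The largest was that of Abcb11, the bile salt export pump, whose circle 33756 was at -3.89 and -3.86 on HuD KO replicates 1 and 2 and between -0.81 and -0.70 in WT. Its spot on HuD KO replicate 3 was marked as an outlier by the scanner software, with a level of -1.20, and was left out of the fit, which gave -3.13 from 2 HuD KO arrays.

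The largest falls among members well above background on all 6 arrays were otherwise in solute carriers and in Atp2b3. Slc35d2, a nucleotide sugar transporter, had a circle (26502) at -0.21, 0.75 and 0.35 in WT and at -3.38, -3.22 and -2.30 in HuD KO, a level 9.59-fold lower. Slc35b3, the transporter of the sulfate donor PAPS, had a circle (26219) at -0.30, -0.33 and -0.31 in WT and at -3.57, -3.74 and -2.52 in HuD KO (7.78-fold lower). Slc10a7 had a circle (43136) that went from -0.63 ± 0.19 in WT to -3.28 ± 0.65 in HuD KO (SD, n = 3 in each group). In all 3 circles HuD KO replicate 3 fell least, and no HuD KO array reached the WT range. The zinc transporter Slc39a10, named here after its values were seen, had the largest change of all members, -5.15. Its circle 20033 was at 1.71, 1.60 and 0.84 in WT and at -4.28, -3.80 and -3.23 in HuD KO, where it was well above background on 2 of the 3 arrays. The other solute carriers of the lower table, among them carriers of amino acids, protons, chloride and fatty acids, had changes between -2.57 and -1.08, besides Slc9a4, Slc38a4 and those named above. Slc38a4 (-3.64) was well above background on 1 of the 3 HuD KO arrays, and Slc39a8 (-2.41), which is within that range, on 2 of the 3. The circRNA counted under Slc38a4 is listed as antisense to that gene.

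Class and span of the members were set beside those of the other listed circRNAs. Of the 71, 61 (85.9%) were exonic, beside 76.1% of the 2985 others. Members were chosen by the symbol of a host gene, and 0 of them were intergenic, beside 79 of the others. The part of this rule in the exonic shares, here and by table, was not tested. By table, 90.9% of members in the higher table were exonic (others 83.1%), 83.3% in the lower table (others 65.5%) and 86.7% in the HuD-bound list (others 87.2%). The median span of the members in the genome was 9226 bp, beside 11414 bp. By table the median span of members was 19201.5 bp in the higher table, 6226.5 bp in the lower and 18991 bp in the HuD-bound list, and that of the others was 17297, 8155 and 10344 bp. The share of A and T in the 60 bases had a median of 56.7% in members and 55.0% in the others. Since HuD is known to bind AU-rich and U-rich RNA, ATTTA and TTTTT were counted in the 60 bases as deposited. ATTTA was in 5 of 71 members (7.04%) and in 4.09% of the others, and TTTTT was in 8 (11.3%) and 4.99%, with 1 member that held both. The 8 with TTTTT include both Abcb9 circles, whose sequences share 47 bases. On the opposite strand the members' counts were 1 (1.41%, others 3.55%) and 2 (2.82%, others 9.51%). Of the 15 HuD-bound members, Atp6v1h circle 19574 held ATTTA and Slc6a11 circle 40770 held TTTTT, that is 1 each (6.67%), beside 4.82% and 3.42% of the 643 other HuD-bound circRNAs. The rest of each circle was not searched.

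The deposited tables also name up to 5 miRNAs per circRNA with predicted sites. The 3 miRNAs named for most of the 58 listed members are shown, with mature sequences from RefSeq (GRCm38.p6) and the seed, bases 2 to 8, in capitals.
mmu-miR-5110: gGAGGAGGuagagggugguggaauu
mmu-miR-1903: cCUUCUUCuucuuccugagaca
mmu-miR-7116-3p: uUUUUUUCcuuugccuucucag
Their seeds all differ. Sites for miR-5110 were predicted in 6 members (10.3%), all of them carriers of the Slc and Mfsd families, beside 5.35% of the 2430 other listed circRNAs. Sites for miR-1903 were predicted in 5 members (8.62%, others 8.44%) and sites for miR-7116-3p in 5 (8.62%, others 3.87%), and both included the 2 circles of Atp2b1. Sites for miR-214-3p (others 0.905%), miR-6900-5p (others 0.576%) and miR-6981-5p (others 3.54%) were predicted in 4 members each (6.90%). The 4 include both Abcb9 circles for miR-214-3p and both Slc8a3 circles for miR-6900-5p. These are predictions from sequence, and levels of miRNAs were not measured on these arrays.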

How the data were processed

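Per the labels, total RNA of each striatum was extracted with Trizol, treated with RNase R and hybridised in 1 colour. The deposited array files hold the intensity of each spot, background-corrected by Agilent Feature Extraction 11.0.1.1 and not normalized between arrays. Only position, class, predicted miRNAs and sequence were taken from the authors' deposited tables and the HuD-bound list; their fold changes, p-values and intensities were not used. The members and lists were chosen with earlier results of these data known.

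Values were log2 intensities minus the array's 75th percentile over circRNA probes. Spots flagged as outliers were left out. Probes well above background on all 3 arrays of a group were kept, which included all 71 members. Groups were compared with limma 3.58.1 (R 4.3.3; lmFit, eBayes) on 6 arrays, with Benjamini-Hochberg adjustment over 13445 probes and calls at an adjusted p under 0.05. Precision is limited by the 3 arrays per group. The fit and the permutation test were tested on simulated data. The files hold no mean signal, so the normexp alternative (offset 50) used median signals. Named were HuD-bound members, the 5 largest rises and falls among members well above background on all 6 arrays, members of hosts listed in both directions or with 3 members, and members of the Slc1, Slc6, Slc8, Slc17, Slc18, Slc24, Slc32, Atp1a, Atp1b and Atp2 families. Alternatives were other scalings, background corrections, filters, flags kept, array weights, scan and replicate number as blocks, the methods' t-test and leaving out each array. The values of 1 HuD-bound member that was not called and of 1 marker gene are not reported here.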

Additional observations from a re-analysis of the deposited data

How the results depend on the processing

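Of 36 named circRNAs, 19 kept their direction and their side of the threshold under all 20 alternatives. Scaling on the control probes, which lowers all log2 changes alike, moved the most: HuD-bound members called higher numbered 1 and called lower 5, their median change was -0.37, members called higher numbered 13 in all, and over all probes 612 were called higher and 8480 lower. It turned the change of Atp1b1 (-0.45), Atp2a2 39310 (-0.10) and 39312 (-0.37), Atp6v1h 018088 (-0.15) and 19574 (-0.10), Slc1a2 (-0.086) and Slc8a1 000947 (-0.78) and 31020 (-0.47). Without scaling the median of the HuD-bound members was 0.93, with 5348 higher and 2552 lower calls over all probes. HuD-bound members called lower numbered 1 after quantile normalization and 1 with array weights; leaving out 1 array gave 0 to 1, and 6 to 8 called higher. Normexp with quantile normalization gave 55.3% higher ones among all calls, beside 41.3%. Circles near 0 changed sign: Atp2a2 19383 with median scaling (0.11), no scaling (0.43) and normexp (0.018), and from -0.23 to 0.024 without single arrays; Slc30a9 38720 with no scaling (0.25), quantile normalization (0.00019) and normexp with it (0.063); Slc6a11 with median scaling (0.16), no scaling (0.47) and array weights (0.31), and from -0.17 to 0.13 without single arrays; Slc8a1 000947 after quantile normalization (-0.25) and normexp with it (-0.22), and from -0.18 to 0.35 without single arrays; Slc8a1 31020 with normexp and quantile normalization (-0.0052). The difference between the Atp6v1h circles was -0.038 with normexp and quantile normalization and ran from -0.20 to 0.34 without single arrays. The cause was not tested.

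Same-numbered arrays of the 2 groups did not deviate together (correlations from -0.08 to -0.01), and the main fit was unpaired. The sample titles do not state whether equal numbers mark a pair. With the replicate number as a block, 7 HuD-bound members were called higher, 0 were called lower and their median change was 0.41, and over all probes 3208 were called higher and 4779 lower. As pairs, the differences between circles of one host had the same values, with an exact p of 0.25 at the least. By the methods' t-test with a fold over 2 and its unadjusted threshold, 2 HuD-bound members were higher and 0 were lower, and after Benjamini-Hochberg adjustment 8 and 0. By array weights, 10 were called higher, and with scan as a random block 6.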
